A study of Mus musculus with 7 samples.

Results

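The adipocyte genes described here were 7 genes known from fat cells: Adipoq, Lep, Cfd, Fabp4, Plin1, Lpl and Cd36. Members were all probe sets, other than control probe sets, that the platform annotation assigned to 1 of these genes alone. They numbered 11 of the 45101 probe sets on the array and represented 5 of the 7 genes: 4 probe sets for Fabp4, 3 for Cd36, 2 for Lpl and 1 each for Adipoq and Lep. The probe sets of a gene are called first, second and so on in the order of their identifiers, as the plots list them. Plin1 and Cfd were not analysed here. The study measured RNA on 7 single-channel Affymetrix mouse arrays. These comprised 2 arrays of dissected basal cell carcinoma, a skin tumour driven by Hedgehog signalling, 2 arrays of normal epidermis dissected from mice at birth (P0), and 3 PDKC1 arrays. PDKC1 is a mouse basal cell carcinoma cell line, measured as a control at 0 h and after 6 h and 10 h with cyclopamine, an inhibitor of the Hedgehog signal transducer Smoothened, with 1 array per time. The genotype and strain of the mice, the age of the tumour-bearing mice and the dose of cyclopamine were not given in the sources used here. Tumour and newborn epidermis may therefore differ in age as well as in disease, and these cannot be told apart. The tissues also differ in RNA quality ratios and in markers of other cell types, given below, which cannot be told apart from disease either. The labels do not say whether the 2 arrays of a tissue came from separate animals, and a p-value then describes only how far these samples spread, which may be technical variation.

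White adipocytes store triglyceride in a large lipid droplet and secrete hormones. Skin carries a layer of dermal white adipocytes beneath the dermis, outside the epidermis. Fatty acids reach the cell after lipoprotein lipase (Lpl) releases them from circulating lipoproteins, CD36 helps take them up, and the carrier protein FABP4 binds them inside the cell. Adiponectin (Adipoq) and leptin (Lep) are hormones made mainly by adipocytes. Lpl, Cd36 and Fabp4 are less specific: muscle and macrophages express Lpl, and endothelium and macrophages express Cd36 and Fabp4.

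Values are linear signal intensities, and the number of arrays limits the precision. Array medians were 118.2 and 127.9 for the tumours and between 71 and 78.1 on the other 5 arrays, which serves as a yardstick for dim values. The ratio of 3' to 5' signal for the Actb control probe sets is a sign of RNA integrity. It was 11.3 in tumour 1, 93.1 in tumour 2, 3.98 and 2.84 in epidermis, and 1.15 to 1.21 in PDKC1. The same ratio for Gapdh was 10.6 and 15.4 in tumours 1 and 2, 5.27 and 4.52 in epidermis, and 0.70 to 0.74 in PDKC1. The tissues were labelled from 100 ng of RNA and PDKC1 from 2000 ng, and the part of this in the ratios was not tested. Of 12 keratinocyte markers, 0 were called higher and 5 lower in tumour. The single markers that follow were picked out after their values were seen. The basal keratin gene Krt5 lay between 26659 and 35513 on all 7 arrays, whereas Krt15, also a basal keratin gene, lay between 13434 and 30783 in the tissues and between 957 and 1203 in PDKC1. The differentiation keratin genes Krt1 and Krt10 did not exceed 47.3 and 865 in PDKC1 and were at least 6580 and 21472 in the tissues. The epithelial adhesion genes Epcam and Cdh1 did not exceed 59.4 on any PDKC1 array and lay between 5489 and 9236 in the tissues. Of the same list, Krt14, Trp63 and Dsp were at least 30255, 8779 and 11327 on every PDKC1 array. Ivl, Lor and Flg did not exceed 256 there.

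In tumour, 3 of the 5 measured adipocyte genes rose against newborn epidermis: Lpl, Fabp4 and Adipoq. Cd36 and Lep did not pass the test. Differences were taken on the log2(intensity + 16) scale, which understates changes of dim genes, with the brightest probe set standing for its gene, and a gene was called at an adjusted p under 0.05 by limma with Benjamini-Hochberg adjustment over all 18193 genes. Of all genes, 16.6% were called higher and 12.5% lower. The median difference of the 5 genes, tumour minus epidermis, was 1.68, against 0.09 over all genes. Scaling mattered for these shares: 57.1% of all called genes were higher with the deposited scaling, 44.6% with quantile normalization and 23.7% with median-centred arrays, which moved the median of all genes to -0.20 and -0.55. In dissected tissue, fewer cells of a type and less RNA per cell cannot be told apart.

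**Figure D1:**
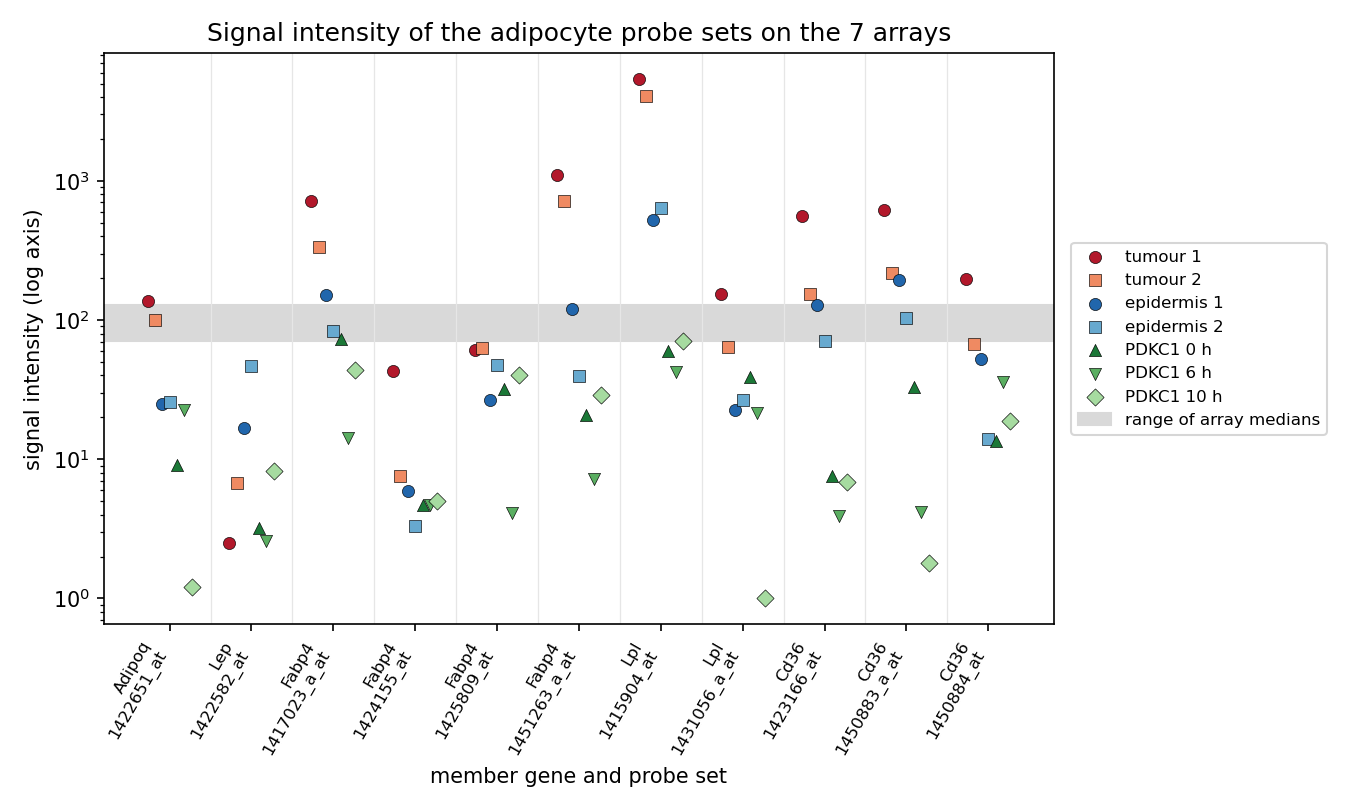
Signal intensity (log axis) of the 11 adipocyte probe sets on each of the 7 arrays; each point is 1 array, and the grey band spans the medians of the 7 arrays. The first Lpl probe set reaches 5396 and 4083 in the tumours, Lep lies under 10 in both tumours, and no PDKC1 point exceeds 73.

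Adipoq encodes adiponectin and was measured by 1 probe set. Its intensity was 137.5 in tumour 1 and 99.4 in tumour 2, 25.1 and 25.9 in the epidermis arrays, and 9.1, 22.5 and 1.2 in PDKC1 at 0 h, 6 h and 10 h. Both tumours lay above every other array, and the groups did not overlap. Tumour 1 was at the 52.6th percentile of its array and tumour 2 at the 44.7th, so the signal was close to that of the median probe set in each. The log2 difference was 1.68 ± 0.44 (SE, 2 arrays per tissue), or 3.21-fold, with an adjusted p of 0.0309 by limma. The call was lost with quantile normalization (1.19, adjusted p = 0.0942), with median-centred arrays (1.04, 0.119), without tumour 1 (1.48, 0.0801), and without epidermis array 1 (1.67, 0.150) or 2 (1.70, 0.143). With a pseudocount of 64 in place of 16 the difference was 1.02, and the call held at an adjusted p of 0.0253. Adipoq was also called in a fit of all 45037 non-control probe sets (adjusted p = 0.0422 by limma). That call was lost whichever tissue array was left out.

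Lep, the leptin gene, had the opposite order. It stood at 2.5 and 6.7 in tumours 1 and 2, at 16.7 and 46.7 in the epidermis arrays, and at 3.2, 2.6 and 8.2 in PDKC1. Both tumours were below both epidermis arrays, and they overlapped PDKC1. Tumour 1 was at the 2.2nd percentile and tumour 2 at the 6.5th percentile of all probe sets on their arrays. The log2 difference of -1.14 ± 0.49 (95% interval -2.31 to 0.03) did not pass the test (adjusted p = 0.131 by limma). It did pass with median-centred arrays, at -1.78 and an adjusted p of 0.0274. Because both tumour values lie under the pseudocount, the size depended on it, from -1.96 with a pseudocount of 4 to -0.46 with 64.

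Fabp4, the cytosolic fatty acid carrier, was measured by 4 probe sets that share their gene and are not replicates of it. The probe set that stood for the gene, the first, gave 711.9 and 335.2 in the tumours, 151.8 and 83.9 in epidermis, and 73, 14.2 and 44.1 in PDKC1. The tumours were the highest arrays, and epidermis array 2 was close to PDKC1 at 0 h. Its log2 difference was 1.97 ± 0.47 (SE, 2 arrays per tissue; adjusted p = 0.0225 by limma), a 3.91-fold rise. This call was lost with quantile normalization (1.34, adjusted p = 0.111), with median-centred arrays (1.32, 0.0824), without tumour 1 (1.44, 0.0518), and without epidermis array 1 (2.34, 0.0722) or 2 (1.59, 0.154).

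The other Fabp4 probe sets did not give a single size. In a fit of all 45037 non-control probe sets, 18.3% were called higher and 9.17% lower, and 4 of the 11 adipocyte probe sets were called higher and 0 lower. The fourth probe set had intensities of 1104.7 and 721.3 in tumour, and of 120 and 39.7 in epidermis, with 20.9, 7.2 and 29 in PDKC1. Its log2 difference of 3.38 ± 0.48, or 10.4-fold, had an adjusted p of 0.00256 by limma, and this call held with quantile normalization (2.95, 0.0143), with median-centred arrays (2.74, 0.00713) and with each tissue array left out (adjusted p 0.00398 to 0.0186). The third probe set had 61.2 and 63.5 in tumour against 26.7 and 47.6 in epidermis, and its difference of 0.59 (95% interval -0.61 to 1.78) was not called; with median-centred arrays it turned to -0.05. The second probe set was dim throughout, at 43.3 and 7.6 in tumour and 5.9 and 3.3 in epidermis (0.86, adjusted p = 0.276 by limma). Of the 4 Fabp4 probe sets, 2 were called higher.

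Lpl encodes the secreted lipase that frees fatty acids from lipoproteins in the circulation. The probe set that stood for it, the first, was at 5395.6 and 4082.9 in the tumours, at 523.1 and 635.9 in epidermis and at 59.8, 42.4 and 70.4 in PDKC1. The 3 kinds of sample did not overlap: tumour was highest, epidermis lay between, and PDKC1 was lowest. The tumour values stood at the 97.5th and 96.3rd percentiles of their arrays, the epidermis values at the 78.7th and 80.4th, and PDKC1 between the 38.5th and 48.7th. The log2 difference between tumour and epidermis was 2.99 ± 0.24 (SE, 2 arrays per tissue; adjusted p = 0.00071 by limma), or 7.94-fold. It was called under all 14 alternatives tried for the fit of genes, with differences between 2.26 and 3.19 and adjusted p between 4.72e-05 and 0.0187. The second Lpl probe set was dimmer, at 154.9 and 64.3 in tumour against 22.7 and 26.5 in epidermis. Its difference of 1.53 ± 0.57, from the fit of all probe sets, was not called (adjusted p = 0.0872 by limma).

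Cd36, a scavenger receptor that takes up long-chain fatty acids, was not called by any of its 3 probe sets when all 4 tissue arrays entered the fit without a block. The one that stood for the gene, the second, gave 616.5 for tumour 1 and 217.9 for tumour 2, 193.3 and 102.9 for epidermis, and 33.2, 4.2 and 1.8 for PDKC1. Tumour 2 was close to epidermis array 1, although the groups did not overlap. The log2 difference was 1.29 ± 0.55 (95% interval -0.03 to 2.60; adjusted p = 0.131 by limma). Without tumour 2 it was 2.00 and was called (adjusted p = 0.0120), and without tumour 1 it was 0.57. In the fit of probe sets without tumour 2, the first and second were called (adjusted p = 0.0101 and 0.0143 by limma) and the third was not (0.0677). The other probe sets differed by 1.49 (adjusted p = 0.121) and 1.56 (0.137).

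**Figure D2:**
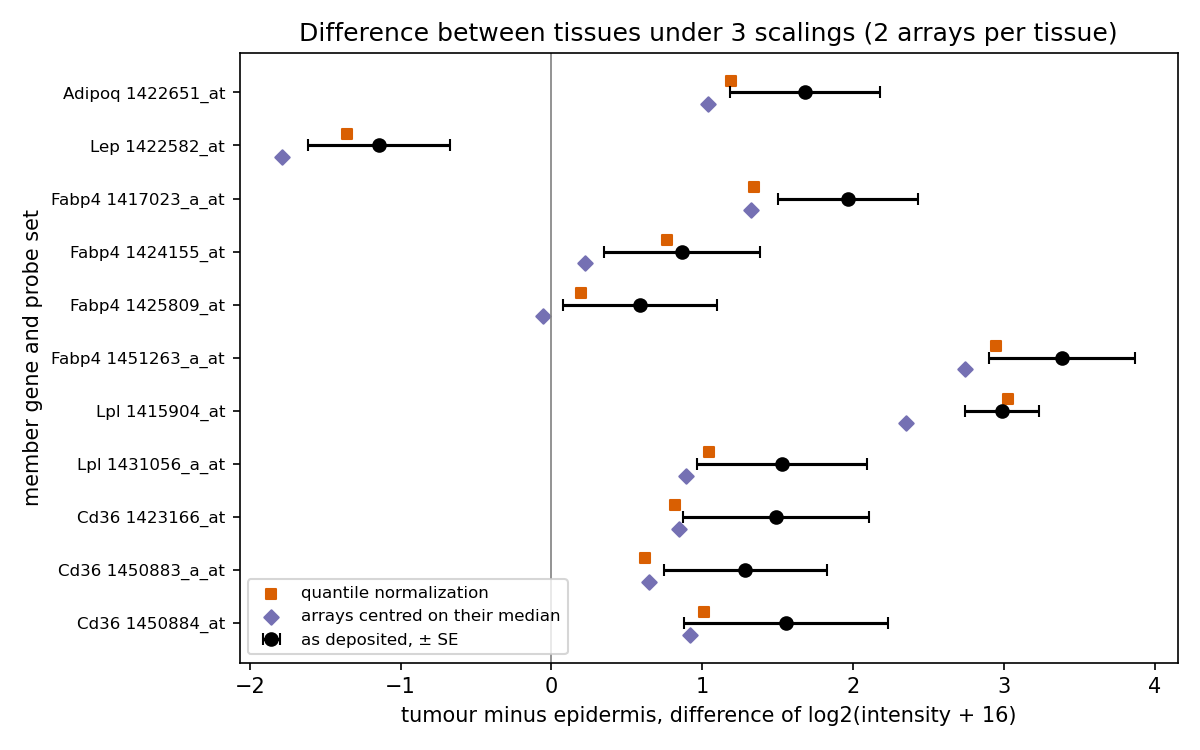
Tumour minus epidermis difference of log2(intensity + 16) for each of the 11 adipocyte probe sets. Black points with bars give the deposited scaling ± SE (2 arrays per tissue), squares quantile normalization and diamonds arrays centred on their median. Centring moves every point to the left, the third Fabp4 probe set past 0 to -0.05, while Lep lies on the negative side throughout.

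Over all 11 probe sets, 10 had both tumours above both epidermis arrays, an order that 38.4% of all non-control probe sets showed. The remaining one, of Lep, had both tumours below, as did 25.0% of all. These counts include dim probe sets: 5 of the 11 exceeded the array median in both tumours and 3 in both epidermis arrays, and 6 passed a filter at the 40th percentile of mean level, with Adipoq and Lep among those left out.

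The 2 tumour arrays themselves differed in these genes. Of the 11 probe sets, 9 were higher in tumour 1 than in tumour 2, and 6 were at least 2-fold lower in tumour 2, against 8.51% of all non-control probe sets. None (0 of 11) was at least 2-fold higher in tumour 2, where 11.6% of all were. The 6 belonged to 3 genes: 3 probe sets of Cd36, 2 of Fabp4 and 1 of Lpl. The 3 Cd36 probe sets differed by -1.75, -1.44 and -1.37 on the log2 scale from tumour 1 to tumour 2. Adipoq (-0.41) and the brighter Lpl probe set (-0.40) differed less. The labels do not say whether the 2 tumour arrays came from separate animals, and these differences have no replicate check. Such gaps were not particular to the tumours. From epidermis array 1 to array 2 the 3 Cd36 probe sets differed by -0.74, -0.82 and -1.18. The 4 Fabp4 probe sets differed by -0.75, -0.18, 0.57 and -1.29 there, against -1.05, -1.33, 0.04 and -0.60 between the tumours. Lep (0.94), Lpl (0.27 and 0.14) and Adipoq (0.03) were higher in epidermis array 2. The matching share of all probe sets was not counted for epidermis. Over all genes, 9407 of 18193 were higher in tumour 1, with a median difference of -0.03 from tumour 1 to tumour 2. Of 13 skeletal muscle markers 10 were higher in tumour 1 (median -2.10), with a summed intensity of 18295 in tumour 1 and 3495 in tumour 2, while Ckm (1.81), Myh7 (0.60) and Pygm (0.03) were not. Sebaceous gland markers (6 of 6, median -0.71), Schwann cell markers (6 of 6, -0.64), genes of the lipid droplet and lipolysis (12 of 14, -0.60) and adipokine and receptor genes (9 of 10, -0.88) were also mostly higher in tumour 1. Genes of fatty acid uptake and triglyceride synthesis (10 of 15, -0.29) and transcription factor and coactivator genes of fat cell formation (7 of 12, -0.26) differed less. Brown adipocyte markers (2 of 5, 0.30) were not mostly higher in tumour 1. Keratinocyte (9 of 12) and endothelial markers (8 of 12) both had medians of -0.35. Fibroblast (5 of 11) and macrophage markers (5 of 12) had medians of 0.17 and 0.07. The 3' to 5' ratio was higher in tumour 2 for Actb (93.1 against 11.3) and for Gapdh (15.4 against 10.6). The part of these cells and of RNA quality in the adipocyte values was not tested.

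**Figure D3:**
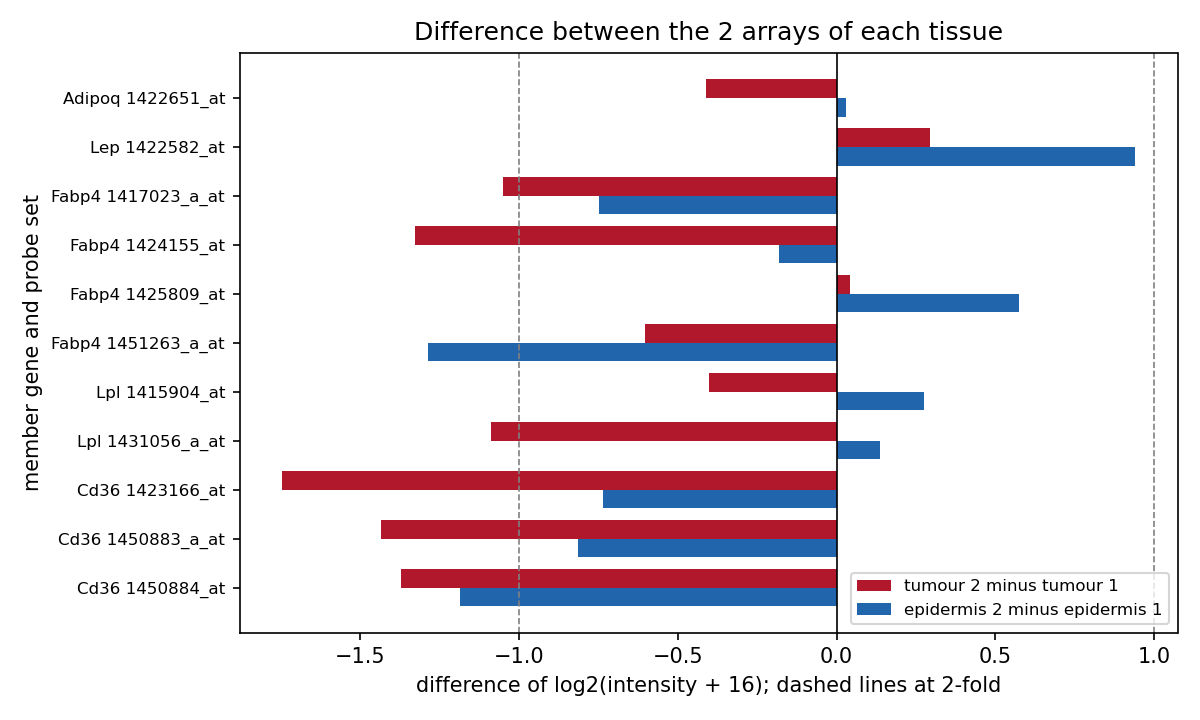
Difference of log2(intensity + 16) between the 2 arrays of each tissue for the 11 adipocyte probe sets; dashed lines mark 2-fold. Tumour bars reach -1.75 for Cd36. Epidermis bars are also negative for Cd36 (-0.74 to -1.18) and range from -1.29 to 0.57 for Fabp4. The first Lpl probe set differs by -0.40 between tumour arrays and 0.27 between epidermis arrays.

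In PDKC1 the adipocyte genes were dim at all times. All 33 values (11 probe sets on 3 arrays) lay under the median of their array, between 1 and 73, and 18 of them were under the pseudocount of 16. With 1 array per time, no test was made. Cd36 was the member gene that lay at least 2-fold below 0 h at both 6 h and 10 h, with differences of -1.28 and -1.47 (33.2, 4.2 and 1.8). Among all genes, 2.73% lay at least that fold lower at both times and 1.69% at least that fold higher. The other Cd36 probe sets did not share this course: the first read 7.6, 3.9 and 6.9, and the third read 13.6, 35.9 and 18.8. The count of 1 gene became 0 with a pseudocount of 64, with dim genes left out and with averaging over the probe sets of a gene. At 6 h alone, 3 of 11 probe sets were at least 2-fold from 0 h (12.9% of all probe sets), and at 10 h 2 of 11 were (12.9%). PDKC1 was labelled from 2000 ng of RNA and the tissues from 100 ng, so levels of cell line and tissue are set side by side without a test.

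The stretch before the transcription start is shown for the 3 measured genes with an entry in the RefSeq promoter table (GRCm38.p6), to set the hormone gene that was called higher (Adipoq) beside the one that was not called (Lep) and beside Cd36. Each run is the 250 bases that end at the base before the annotated start, 5′ to 3′ on the gene's strand. Capitals mark matches on either strand to CCAAT, to TTGCNNAA (a core of C/EBP sites), to AGGTCA (a nuclear receptor half-site) and to TATAAA.
Adipoq (chr16:23146286-23146535, plus strand): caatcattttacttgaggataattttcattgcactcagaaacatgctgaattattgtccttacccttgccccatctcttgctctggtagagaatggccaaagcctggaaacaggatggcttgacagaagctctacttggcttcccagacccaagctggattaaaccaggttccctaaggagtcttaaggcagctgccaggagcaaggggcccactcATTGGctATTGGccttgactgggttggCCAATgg
Lep (chr6:29059971-29060220, plus strand): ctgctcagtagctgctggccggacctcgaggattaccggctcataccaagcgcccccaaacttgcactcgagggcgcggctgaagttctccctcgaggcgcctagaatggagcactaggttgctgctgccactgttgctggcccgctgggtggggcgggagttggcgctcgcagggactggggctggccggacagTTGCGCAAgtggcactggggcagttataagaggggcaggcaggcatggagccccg
Cd36 (chr5:17835897-17836146, minus strand): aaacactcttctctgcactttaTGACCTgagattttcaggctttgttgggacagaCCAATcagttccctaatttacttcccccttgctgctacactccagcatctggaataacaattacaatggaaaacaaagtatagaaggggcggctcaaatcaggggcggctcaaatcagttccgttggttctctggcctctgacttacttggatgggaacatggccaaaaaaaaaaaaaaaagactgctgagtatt

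The Adipoq stretch held 3 matches to CCAAT, 2 on the opposite strand starting at -34 and -27 and 1 on the gene's strand at -7 from the start. CCAAT on either strand was present in 33.9% of the 32851 windows of this length in the table. The Lep stretch held TTGCGCAA at -55 to -48, which reads the same on both strands and overlaps matches to CANNTG on each side; 9.56% of windows held TTGCNNAA. The Cd36 stretch held 1 CCAAT at -195 and 1 AGGTCA on the opposite strand at -228, the latter motif being present in 14.0% of windows. None of these 3 stretches held TATAAA (12.4% of windows) or the direct repeat of AGGTCA spaced by 1 base (0.03% of windows). GGGCGG (32.7% of windows) occurred in Lep and Cd36, and CANNTG (66.2%) in all 3. These matches are a description of letters in the reference and were not tied to the array values.

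Of 12 measured transcription factor and coactivator genes of fat cell formation, 5 (41.7%) were higher and 2 (16.7%) lower in tumour, with a median of 0.57; of all genes, 16.6% were higher and 12.5% lower. Klf15, which acts late in adipocyte differentiation, stood at 1039 and 822 in tumour against 19.8 and 72 in epidermis (4.07 ± 0.49, adjusted p = 0.00202 by limma). The coactivator gene Ppargc1a differed by 3.23 ± 0.46 and Ebf1, an early adipocyte and B cell factor, by 2.52 ± 0.41. Pparg and Cebpa, the central regulators of adipocyte differentiation, were picked out after their values were seen. Pparg had 144.8 and 120.1 in tumour and 79 and 113.7 in epidermis (0.41, adjusted p = 0.520). Cebpa, which epidermis also expresses, was lower, at 579.7 and 419.1 against 2558.5 and 2802.3 (-2.40 ± 0.24, adjusted p = 0.00116). Without epidermis array 1 or 2 the list had 2 and 3 higher, with 1 lower in each, and without a variance trend it had 1 lower.

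Of 14 measured genes of the lipid droplet and of its breakdown, 2 (14.3%) were higher and 3 (21.4%) lower, with a median of -0.18. These counts are close to the shares of all genes (16.6% and 12.5%) and are not a result about the list. G0s2, which restrains the lipase ATGL, had 962.4 and 303.1 in tumour against 55.3 and 11.7 in epidermis (3.65 ± 0.69, adjusted p = 0.00918 by limma). Plin4, a lipid droplet coat gene of the same family as Plin1, had 517.6 and 438.3 against 64.8 and 7.2 (3.51 ± 0.62, adjusted p = 0.00754). Lipe, the hormone-sensitive lipase gene, was lower, at 60 and 42.3 against 374.1 and 232 (-2.22 ± 0.43, adjusted p = 0.0105). The list had 5 higher without tumour 2, and 1 higher and 1 lower without epidermis array 2. The count of lower genes was 7 without tumour 1, 0 without epidermis array 1, 6 with median-centred arrays and 5 with quantile normalization.

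Among 15 measured genes of fatty acid uptake and triglyceride synthesis, 3 were higher and 1 lower (median 0.21), again close to the 16.6% and 12.5% of all genes. The 1 that fell was Dgat2, a triglyceride synthase gene, from 13588 and 12984 in epidermis to 2141.8 and 620.7 in tumour (-3.50 ± 0.52, adjusted p = 0.00386 by limma). Lpin1, a phosphatidate phosphatase gene, rose by 2.77 ± 0.35 and Slc2a4, the insulin-responsive glucose transporter gene, by 1.72 ± 0.37. Gpihbp1, which anchors lipoprotein lipase on capillaries and was named after its values were seen, had 201.7 and 154.3 in tumour and 185.5 and 111.2 in epidermis (0.27, adjusted p = 0.689). Without epidermis array 1 or 2 the list had 1 higher and 1 lower, and with median-centred arrays it had 2 higher and 4 lower. The count of lower genes was 3 without tumour 2, and 2 without tumour 1, with quantile normalization, with a pseudocount of 64, with averaged probe sets and without a variance trend.

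Of 10 adipokine and adipokine receptor genes, 1 was higher and 2 lower (median -0.19), counts that in so short a list are close to the 16.6% and 12.5% of all genes. The adiponectin receptor genes Adipor1 (-2.59 ± 0.56, adjusted p = 0.0148 by limma) and Adipor2 (-1.97 ± 0.29, adjusted p = 0.00398) fell, while the leptin receptor gene Lepr rose by 2.21 ± 0.43 (adjusted p = 0.0107). Lepr was at 264.1 and 184.6 in tumour and 40.1 and 30.7 in epidermis. Counts for this list fell to 0 in both directions without epidermis array 1 and without array 2, and 3 were higher without tumour 2. With dim genes left out and with averaged probe sets 0 were higher, and with averaged probe sets 1 was lower.

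**Figure D4:**
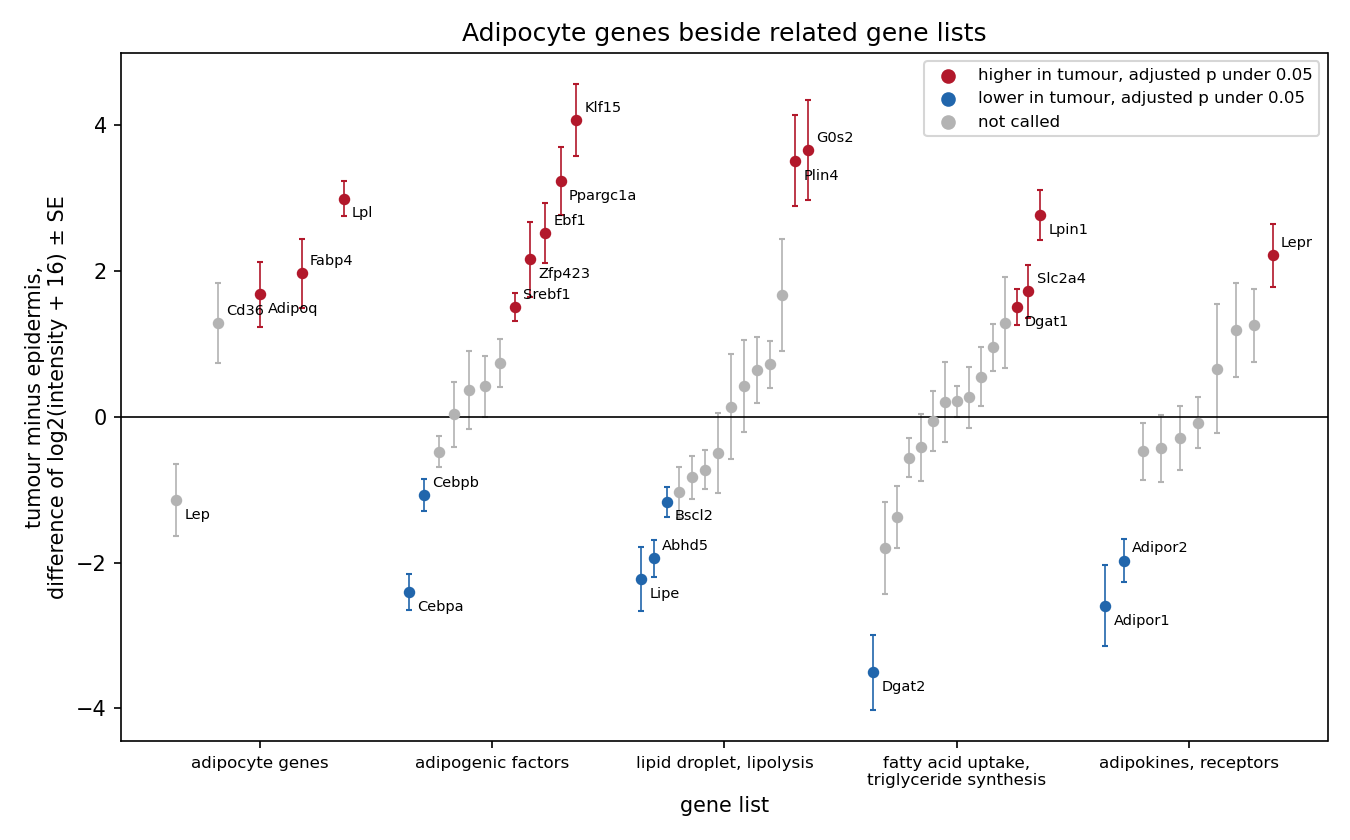
Tumour minus epidermis difference of log2(intensity + 16) ± SE for each measured gene of 5 lists (2 arrays per tissue), with called genes named. Lpl, Fabp4 and Adipoq are higher in tumour and Lep lies at -1.14, and each related list has called genes on both sides of 0.

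Markers of other cell types that express some of these genes were counted in the same fit, in which 16.6% of all genes were higher and 12.5% lower. Of 12 endothelial markers 5 were higher and 0 lower in tumour, with summed intensities of 2059 to 3036 in tumour, 764.9 to 837.7 in epidermis and 526.9 to 666.2 in PDKC1. Of 12 macrophage markers 4 were higher and 1 lower, and the sums were 12940 to 13927 in tumour, 8794 to 10224 in epidermis and 1169 to 1216 in PDKC1. Of 13 skeletal muscle markers 4 were higher and 0 lower, and the sums were 3495 to 18295, 709.5 to 821 and 531.5 to 673.4 in the same order. Of 11 fibroblast markers 10 were higher and 0 lower (84694 to 107415, 19986 to 20920 and 749.6 to 938.9). Sebaceous gland markers had 1 of 6 higher and 0 lower (20945 to 35006, 7561 to 8402 and 5388 to 7992), and Schwann cell markers 3 of 6 higher and 1 lower (2710 to 4802, 1382 to 1559 and 1758 to 2072). No marker was listed at 0 on any array. Sums follow the brightest genes. Medians of endothelial, muscle, fibroblast and Schwann cell markers were higher in both tumours than in both epidermis arrays. Macrophage medians were 392 and 470 in tumours 1 and 2 against 383 and 450 in epidermis arrays 1 and 2. Sebaceous medians were 2079 and 453 against 1117 and 1134. Scd1 alone read 27894 and 18056 in the tumours. Lpl, Fabp4 and Adipoq were thus higher in the same tissue as markers of several other cell types, and the part of those cells in the adipocyte values was not tested.

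Several of these marker counts moved by more than 1.5 times with a setting. Endothelial markers called higher numbered 2 with quantile normalization, 2 with centring, and 1 and 2 without epidermis arrays 1 and 2. Macrophage markers called higher numbered 1 with centring, 1 without a variance trend, and 1 without either epidermis array; those called lower numbered 3 with centring and without tumour 1, 2 with quantile normalization and with dim genes left out, and 0 without either epidermis array. Muscle markers called higher numbered 8 without tumour 2 and 2 without either epidermis array or with dim genes left out. Sebaceous markers called higher numbered 2 without tumour 2 and with dim genes left out, and 1 was called lower without tumour 1. The 1 Schwann cell marker called lower was not called with averaged probe sets or without either epidermis array. With quantile normalization and with averaged probe sets, 1 keratinocyte marker was called higher. Keratinocyte markers called lower numbered 11 with centring, 9 without tumour 1, and 3 with quantile normalization, without a variance trend and without either epidermis array. Of 5 brown adipocyte markers 2 were higher and 0 lower, namely Prdm16, a determinant of brown fat, and Dio2, which activates thyroid hormone. The count was 1 with dim genes left out, with averaged probe sets and without epidermis array 1, and with centring 1 was also called lower. The sums were 1965 to 2369 in tumour, 451.8 to 502.4 in epidermis and 176.2 to 246.4 in PDKC1. Dio2 gave most of the tumour sums (1497 and 2028). The medians were 87.6 and 31.1 in tumours 1 and 2 against 52.2 and 66.4 in epidermis arrays 1 and 2. Ucp1, the defining gene of brown fat, likewise picked out after its values were seen, was at 11.8 and 26.4 in tumour and 19.1 and 66.4 in epidermis, and its difference was not called (-0.65, adjusted p = 0.452 by limma). Prdm16 was at 346.3 and 258.7 in tumour and 23.9 and 39.5 in epidermis. It was also above both epidermis values in PDKC1, at 148.5, 156.2 and 200.8, whereas Dio2 did not exceed 54.9 there.

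The genes whose profile over the 7 arrays was most like that of each member were found by the root mean square difference of their log2 values after each profile was centred on its own mean. For Lpl the closest were Slc7a2 (0.33 log2 units), Dpep1 (0.38) and Col6a3 (0.39). Slc7a2, an amino acid transporter gene, had 3162.4 and 3784.1 in tumour, 446.3 and 653.5 in epidermis and 30.5 to 55.6 in PDKC1, which follows the 3-step order of Lpl. For Cd36 they were Pcolce2 (0.35), Adgrf5 (0.42) and Crip3 (0.43). Pcolce2, a procollagen processing enhancer gene, had 923.1 in tumour 1 and 189.1 in tumour 2. For Adipoq the closest were 2610024D14Rik (0.24), Arhgap33 (0.25) and Lgi4 (0.25), and for Fabp4 they were Ppil6 (0.24), Tmem45b (0.31) and Rgs11 (0.32). For Lep, which did not exceed 46.7 on any array, they were Rpe65 (0.12), Klk1b7-ps (0.15) and 1700086D15Rik (0.15). Each likeness rests on 7 arrays of 3 kinds of sample. Because the genes were chosen by this likeness, an order they share with the member is not a separate observation.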

How the data were processed

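The authors deposited 1 linear signal intensity per probe set; the sources used here do not name the software behind it. The mean of each array, with 2 percent of probe sets left out at each end, was close to 500, and no further scaling was applied. Per the labels, cRNA was made from 100 ng (tissue) or 2000 ng (PDKC1) of RNA. Of 45101 probe sets, 34945 named 1 gene, with symbols updated through Entrez identifiers (18193 genes); the probe set with the highest mean over the 7 arrays stood for its gene. Tumour and epidermis were compared by limma 3.58.1 (R 4.3.3, variance trend, no block, two-sided) on log2(intensity + 16), over genes and over probe sets. The code was tested on simulated data. There it called 12 of 50 changes of 2-fold, 45 of 50 of 4-fold and 50 of 50 of 8-fold. The simulation changed a far smaller share of the 18193 genes than was called in these data. Its noise was normal, with a spread set by signal level alone. These rates therefore need not hold for the arrays. A gene that was not called may thus still differ. Members, gene lists and motifs were chosen with earlier results of these data known, so list counts are descriptions. Named from each pathway list were up to 3 called genes by size, and for each member the 3 genes of most similar profile; marker lists are given mainly by counts. Krt5, Krt15, Krt1, Krt10, Epcam, Cdh1, Krt14, Trp63, Dsp, Ivl, Lor, Flg, Scd1, Ckm, Myh7, Pygm, Ucp1, Pparg, Cebpa and Gpihbp1 were picked out after their values were seen. Of 142 list entries, 133 were measured. Alternatives changed scaling, pseudocount, filter, probe set rule, variance model, call rule, block and arrays left out. Promoter windows came from RefSeq (GRCm38.p6).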

Additional observations from a re-analysis of the deposited data

How the results depend on the processing

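No member's difference changed direction in the fit of genes under the alternatives tried, and Lpl was called in all 14. Of the 5 genes, 3 were called as reported, 1 with quantile normalization, and 1 to 4 with 1 tissue array left out. Of the 11 probe sets, 4 were called as reported, 2 with quantile normalization, and 2 to 5 with 1 array left out. With median-centred arrays, 2 of the 5 genes were called, Lpl higher and Lep lower, and 3 of the 11 probe sets, 1 of them lower. In PDKC1 the count of 1 gene was 0 with a pseudocount of 64, with dim genes left out and with averaged probe sets. The cause of these changes was not tested. With the replicate number as a block, 4 genes were called, Cd36 (adjusted p = 0.0447) being added by limma, and 6 of the 11 probe sets were called, 2 of them of Cd36 (0.0297 and 0.0324). Also under the block, 2 sebaceous gland markers were higher and 2 genes of fatty acid uptake and triglyceride synthesis lower. Over genes, the deviations of same-numbered arrays had a correlation of -6e-04, so the numbers were not taken to pair the samples. When an array was left out, the lone array was assumed to vary like the others. The 2 arrays per tissue and values under 16 limit what can be seen for Lep, Adipoq and PDKC1.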
